A study of Arabidopsis thaliana with 6 samples.

Results

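The transcripts described here are the most abundant nuclear ones of chilled *Arabidopsis* seedlings, as far as array signal shows abundance. Nuclear probe sets of the Affymetrix ATH1 array were ranked by their mean over the 3 WT arrays, the 200 brightest were kept, and 29 that report cytosolic ribosomal protein genes were dropped. This left 171 members of 22596 ranked probe sets, and the fit between genotypes ran over 22746. A probe set is a group of short probes against 1 transcript, and its value is a log2 intensity, so that a step of 1 is a 2-fold change. The brightness of a probe set depends on how well its probes bind as well as on how much transcript is present, so the order given is one of signal and no member's level is set against another's. Since the WT arrays chose the members, their WT levels are a description, and the 3 *fbs1-1* arrays are the ones that the choice did not use.

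Both genotypes were 12 day-old whole seedlings given in the labels as No-0, grown for 5 days at 24 °C and then for 7 days at 10 °C, with 16 h of light per day throughout. The WT plants carried no named mutation, while *fbs1-1* has a transposon in the first intron of *FBS1*, which encodes an F-box protein, a substrate adaptor of ubiquitin ligases, that is induced by many stresses. It is a single insertion line, each array holds RNA of pooled seedlings, and the names of the WT arrays carry Nd0 where the other labels give No-0, so that loss of *FBS1* and other differences between the lines cannot be told apart. With 3 arrays for each genotype the errors are wide, and no probe set is tied to *FBS1* in the tables used here, so its own level is not given.

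In a green seedling, much of the nuclear messenger RNA serves the chloroplast. Nuclear genes encode the antenna proteins that gather light, many subunits of both photosystems and of the ATP synthase, and nearly all enzymes of the Calvin cycle, which fixes carbon dioxide, as well as those of photorespiration, which salvages the product of the oxygenase reaction of Rubisco. At low temperature, *Arabidopsis* also accumulates transcripts of the *COR* and *KIN* genes, small hydrophilic proteins that protect membranes and enzymes. Whether such abundant transcripts hold their level when *FBS1* is disrupted is what the comparison of the genotypes addresses.

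The platform annotation names 1 gene for 38 of the 171 members (22.2%) and several genes for 5, against 1 gene for 59.4% of all probe sets tested. Another 4 members are named only through the study's lists of genes that it had called different between the genotypes. Those are *GRP3S* (At2g05380), *FSD1* (At4g25100), *RPE* (At5g61410) and *BGLU18* (At1g52400), and their difference is therefore not independent evidence. The other 124 members have no gene name here, among them 8 of the 10 brightest, and further ribosomal protein genes may be among them. Probe sets whose ID marks them as shared between transcripts made up 11.7% of the members and 4.66% of all tested. The 38 genes lie on all 5 chromosomes, with 11 on chromosome 1, 9 on chromosome 2, 10 on chromosome 3, 6 on chromosome 4 and 2 on chromosome 5.

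Photosynthesis, photorespiration and plastid functions account for 23 of the 38 genes. Of these, 8 act in the thylakoid membrane, 7 in carbon fixation and photorespiration, 5 in plastid gene expression and 3 in other plastid pathways. The other 15 are 5 genes of the secretory pathway and cell surface, 4 of cytosolic metabolism, 2 cold-regulated genes and 4 of other or unknown function. The photorespiratory genes include those of peroxisomal and mitochondrial proteins. How common these functions are among all named probe sets was not counted. Of markers fixed for the tissues that a seedling could hold, the green tissue gene *RCA* and the root gene *PYK10* were members. The peroxidase gene *PRX39*, a second root marker, was at 2.50 in WT, near the array medians of 2.62 to 2.72, and the seed and flower markers are not named here.

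The WT means of the members ran from 9.45 to 12.06 with a median of 10.05, and their *fbs1-1* means from 6.24 to 12.08 with a median of 10.08. On single arrays the median member lay between 10.04 and 10.08. The processing had equalized the distributions of the arrays, which largely sets these medians, so no likeness of the genotypes is read from them. At the edge of the choice, the 5 members with the lowest WT means were at 9.45 to 9.46 and the 5 nearest probe sets outside were at 9.41 to 9.42. The choice therefore has no gap in signal behind it. The median SD within a genotype was 0.095 for the members and 0.144 for all probe sets tested.

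The plot of array values by gene shows the 47 members that have a name, and most sit in a narrow band where the symbols of the genotypes touch or overlap.

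**Figure D1:**
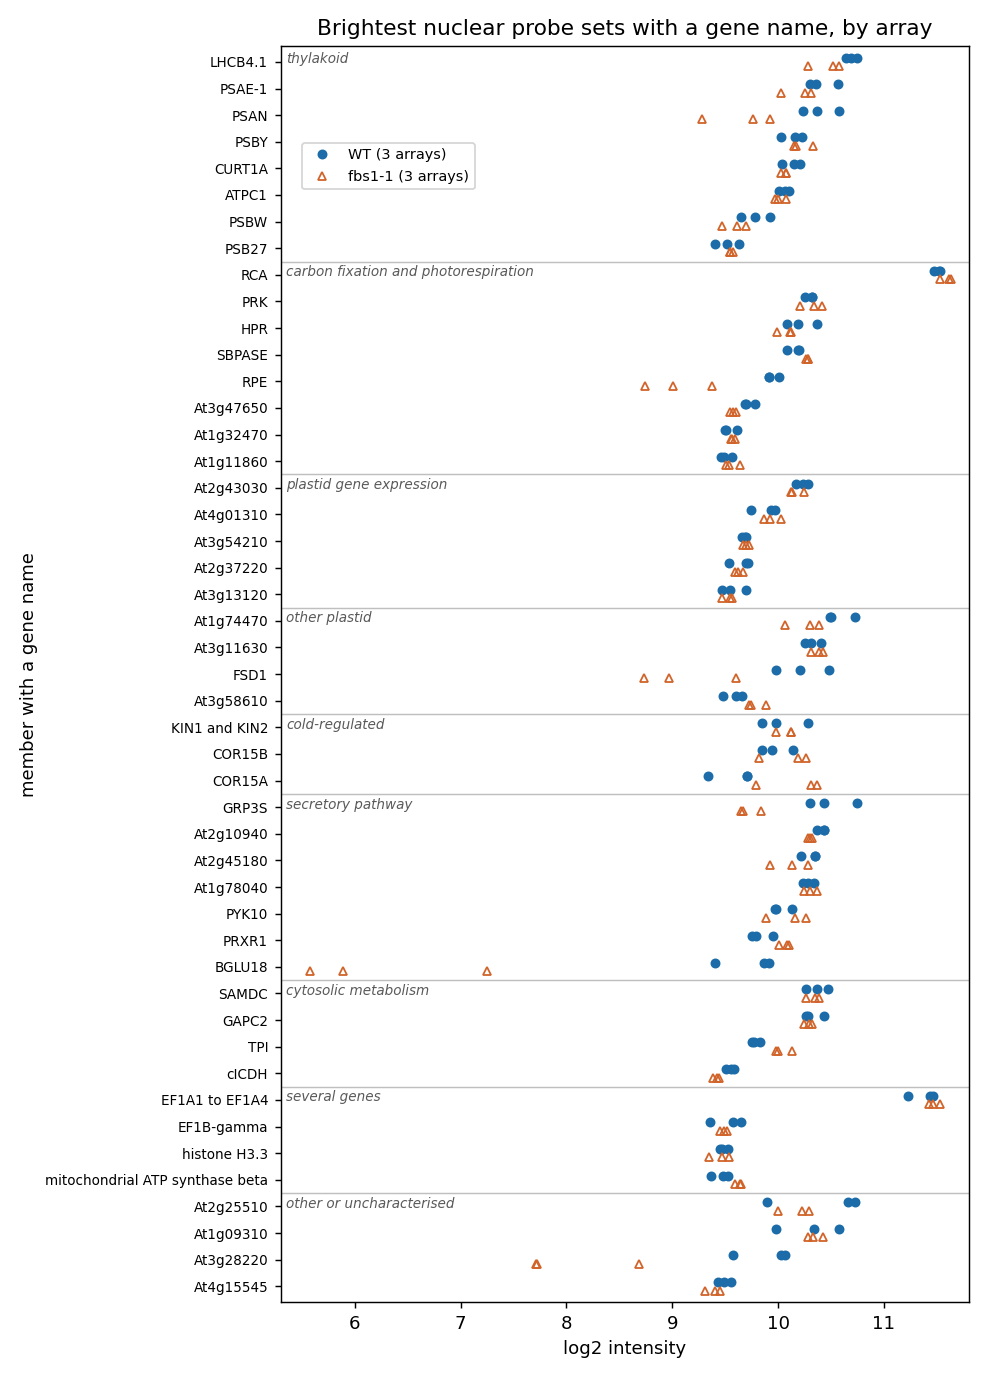
Log2 intensity (horizontal axis) of the 47 members with a gene name, grouped by role, with 1 blue circle per WT array and 1 open orange triangle per *fbs1-1* array, 3 of each. *BGLU18*, At3g28220, *FSD1*, *RPE*, *GRP3S* and *PSAN* have all 3 triangles well below all 3 circles, while *COR15A* has its triangles above.

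Of the thylakoid genes, *LHCB4.1*, a minor antenna protein of photosystem II, was at 10.75, 10.69 and 10.64 on the WT arrays and at 10.52, 10.57 and 10.28 in *fbs1-1*. The genotypes did not overlap, but the difference of 0.24 (standard error 0.11) did not pass limma's test (adjusted p = 0.356). *PSAN*, a lumenal subunit of photosystem I, was at 10.58, 10.24 and 10.37 in WT and at 9.76, 9.92 and 9.28 in *fbs1-1*, again without overlap. Its difference of 0.74 (standard error 0.17), 1.67-fold, had an adjusted p of 0.0590 from limma, just short of the threshold. It passed with the dimmest probe sets left out (adjusted p = 0.0473) and with an intensity trend in the variance (adjusted p = 0.0288). With groups of array numbers in the labels as a block, 43 and 45 against 59 to 62, *PSAN* passed as well (adjusted p = 0.0358). It also passed with arrays centred on their medians (adjusted p = 0.0452). It did not pass after quantile normalization (adjusted p = 0.0607), within the 4 arrays numbered 59 to 62 in the labels (adjusted p = 0.155), or in any of the 6 fits that leave out 1 array (adjusted p from 0.0653 to 0.153).

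*PSAE-1*, a stromal subunit of photosystem I, was at 10.57, 10.35 and 10.30 in WT and at 10.31, 10.25 and 10.03 in *fbs1-1*, where the highest mutant array reached the lowest WT one. *PSBW* of photosystem II was at 9.92, 9.65 and 9.78 in WT and at 9.61, 9.70 and 9.47 in *fbs1-1*, with overlap. The remaining thylakoid genes differed by 0.08 or less in either direction. They are *PSBY* and *PSB27* of photosystem II, *ATPC1*, the gamma subunit of the chloroplast ATP synthase, and *CURT1A* (At4g01150), which bends the edges of grana.

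Taking the 8 thylakoid genes together, 6 had the higher mean in WT, with a median difference of 0.13, and none passed limma's test. These values rest in part on a pair of arrays, because WT replicate 1 was the highest of the 6 arrays for 7 of the 8 genes and *fbs1-1* replicate 3 the lowest for 6 of them. Without both arrays the median difference was 0.03, and 5 of the 8 had the higher mean in WT. Over all 171 members, WT replicate 1 was the lowest array for 54 and the highest for 43, and *fbs1-1* replicate 3 was the lowest for 46 and the highest for 37. Those are the most of any arrays, so both arrays lay at the outside more often than the others, in either direction.

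A gene of the same membrane system was left out by the rule, since its probe set has an ID in the block that was set aside for organelle transcripts. At2g26500, annotated as the *PETM* subunit of the cytochrome b6f complex, was at 10.45, 10.47 and 10.51 in WT and at 9.87, 10.10 and 9.76 in *fbs1-1*, with no overlap. Its WT mean would have placed it at position 45, and its difference of 0.56 (standard error 0.11) passed limma's test (adjusted p = 0.0299). The call was lost without any 1 of 5 of the 6 arrays, with a highest adjusted p of 0.128, and within the 4 arrays numbered 59 to 62 in the labels (adjusted p = 0.0959). Of the 150 probe sets in that block, 15 are named to nuclear genes, and At2g26500 was the 1 that would have been among the brightest.

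Carbon fixation and photorespiration accounted for 7 of the genes named by the platform annotation. *RCA*, Rubisco activase, which frees the active site of Rubisco, was the brightest member with a single gene name. It was at 11.52, 11.47 and 11.53 in WT and at 11.62, 11.53 and 11.64 in *fbs1-1*, with the lowest mutant array at the level of the highest WT array. The difference of -0.09 (standard error 0.09) did not pass limma's test (adjusted p = 0.753). *PRK*, phosphoribulokinase, which makes the acceptor of carbon dioxide, was at 10.32, 10.25 and 10.32 in WT and at 10.41, 10.34 and 10.21 in *fbs1-1*. *SBPASE*, a phosphatase of the regenerating arm of the Calvin cycle, was at 10.08, 10.20 and 10.18 in WT and at 10.26, 10.28 and 10.28 in *fbs1-1*. Its groups did not overlap, yet the difference of -0.12 (standard error 0.09) did not pass (adjusted p = 0.632).

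Among photorespiratory genes, *HPR*, the peroxisomal hydroxypyruvate reductase, was at 10.37, 10.09 and 10.19 in WT and at 10.12, 10.12 and 9.99 in *fbs1-1*. The H protein (At1g32470) and the T protein (At1g11860) of the mitochondrial glycine cleavage system differed by -0.03 and -0.05. At3g47650, related to a zinc finger protein that acts in the assembly of Rubisco, was lower in all *fbs1-1* arrays by 0.15 (adjusted p = 0.526 from limma). Of the 7 genes of this group, 2 had the higher mean in WT and 5 in *fbs1-1*, with a median difference of -0.03, and none passed. The sign of *PRK* turned with arrays centred on their medians and that of At1g32470 with quantile normalization.

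*RPE*, named through the study's lists, encodes ribulose-5-phosphate epimerase of the same cycle. It was at 9.92, 10.01 and 9.91 in WT and at 9.01, 9.37 and 8.74 in *fbs1-1*. The mutant arrays were all lower than the WT arrays, and the difference of 0.90 (standard error 0.15), 1.87-fold, passed limma's test (adjusted p = 0.0178). The call was lost in 4 of the 6 fits that leave out 1 array, namely those without WT replicate 2 or 3 or *fbs1-1* replicate 1 or 3 (highest adjusted p = 0.0749), and within the arrays numbered 59 to 62 (adjusted p = 0.0817).

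The 5 genes of plastid gene expression differed between the genotypes by 0.06 or less in the mean, with larger standard errors of 0.09 to 0.10. They encode the plastid ribosomal proteins L3 (At2g43030), L5 (At4g01310), L17 (At3g54210) and S10 (At3g13120) and a plastid RNA-binding protein (At2g37220). Their differences ran from -0.05 to 0.06, and the genotypes overlapped for all 5. At3g54210 had the smallest difference of all members with a name, at 9.69, 9.66 and 9.69 in WT and 9.67, 9.72 and 9.70 in *fbs1-1*. The 29 cytosolic ribosomal probe sets that were dropped also stayed within 0.25 of equal levels, with a median difference of -0.08, and none of them passed limma's test.

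Of the other plastid genes, At1g74470 encodes geranylgeranyl reductase, which makes the phytyl chain of chlorophyll. It was at 10.72, 10.49 and 10.50 in WT and at 10.38, 10.31 and 10.06 in *fbs1-1*, without overlap, and the difference of 0.32 (standard error 0.12) did not pass limma's test (adjusted p = 0.241). At3g11630, a peroxiredoxin that removes peroxides in the plastid, differed by -0.05. At3g58610, ketol-acid reductoisomerase of branched-chain amino acid synthesis, was at 9.48, 9.66 and 9.60 in WT and at 9.75, 9.72 and 9.89 in *fbs1-1*. All its mutant arrays were higher, by 0.21 in the mean (adjusted p = 0.387 from limma).

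*FSD1*, an iron superoxide dismutase that detoxifies superoxide, was at 9.98, 10.21 and 10.48 in WT. On the *fbs1-1* arrays it was at 8.97, 9.61 and 8.73, lower on every array than in any WT sample. The difference of 1.12 (standard error 0.22), 2.17-fold, passed limma's test (adjusted p = 0.0329). It no longer passed without WT replicate 2 or 3 or *fbs1-1* replicate 1 or 3 (highest adjusted p = 0.123), nor within the arrays numbered 59 to 62 (adjusted p = 0.0887).

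Cold-regulated genes were among the members in both genotypes. *COR15A*, which encodes a chloroplast protein that protects membranes in the cold, was at 9.71, 9.71 and 9.34 in WT and at 9.79, 10.37 and 10.31 in *fbs1-1*. All *fbs1-1* arrays were higher than all WT arrays, although *fbs1-1* replicate 1 exceeded the highest WT array by little. The difference of -0.57 (standard error 0.17), 1.49-fold higher in *fbs1-1*, did not pass limma's test (adjusted p = 0.143). Between the arrays of replicate 1 it was -0.08, whereas within the 4 arrays numbered 59 to 62 it was -0.82 and passed (adjusted p = 0.0397), as it did without *fbs1-1* replicate 1 (-0.76, adjusted p = 0.0461).

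*COR15B*, the close relative of *COR15A*, was at 10.14, 9.94 and 9.85 in WT and at 9.82, 10.19 and 10.27 in *fbs1-1*, with overlap. The probe set shared by *KIN1* and *KIN2* was at 10.28, 9.98 and 9.85 in WT and at 9.98, 10.13 and 10.12 in *fbs1-1*, and its groups overlapped too. Of the 19 genes in the cold-regulated list, 4 are named to a probe set of their own and none of them passed. The dehydrin gene *COR47*, which is no member, was higher in WT by 0.69 (adjusted p = 0.0596 from limma), the reverse of the direction of *COR15A*.

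In the plot of differences by role, 22 of the 43 differences were larger than their standard error and 12 were larger than 2 standard errors. The 43 include 4 genes named only because the study had called them different. The share over all probe sets is not given, so nothing is read from these counts.

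**Figure D2:**
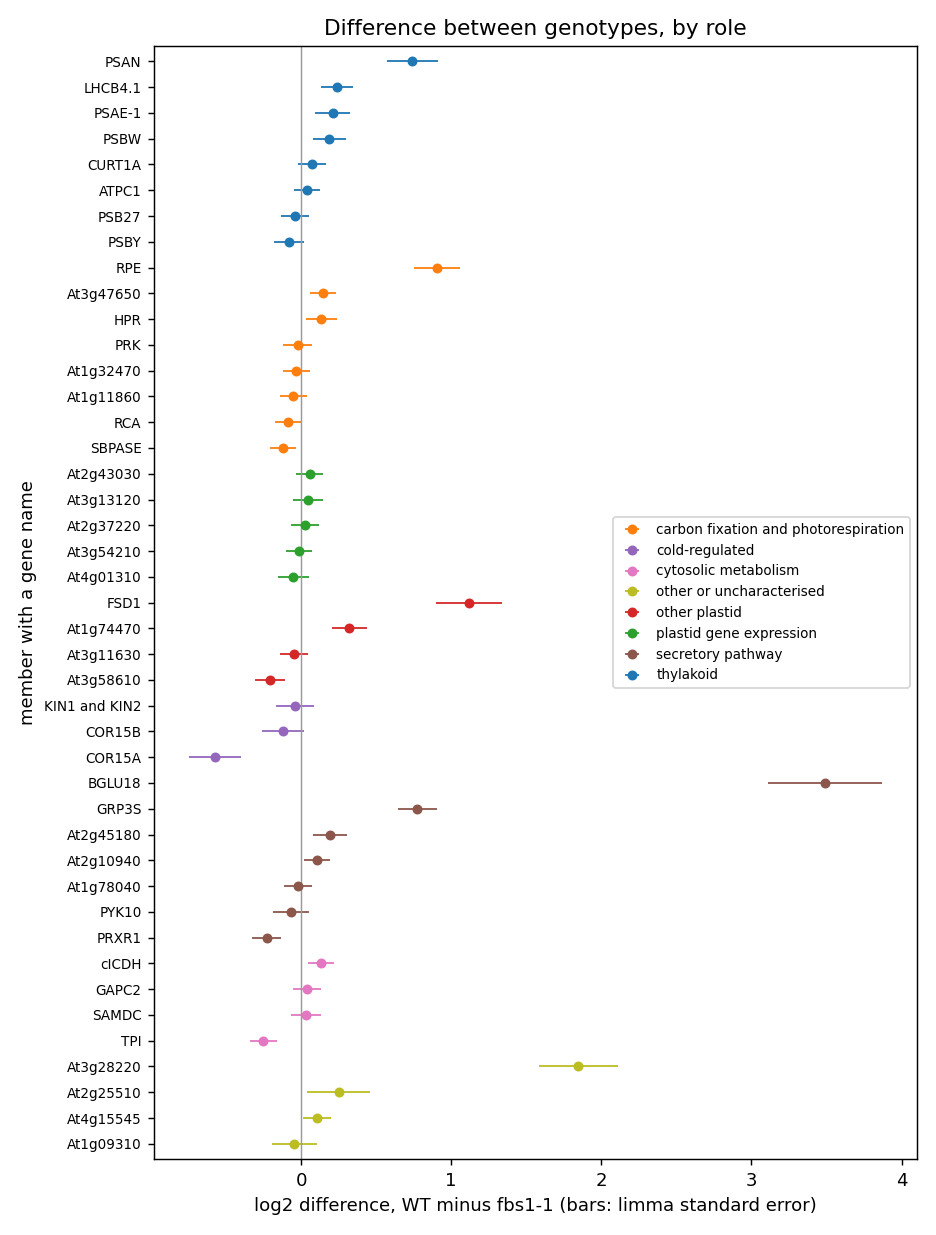
Log2 difference, WT minus *fbs1-1* (horizontal axis), of the 43 members tied to a single gene or to *KIN1* and *KIN2*, with bars for the limma standard error and a color for each role. The genes of plastid gene expression lie between -0.05 and 0.06, whereas *BGLU18* at 3.49 and At3g28220 at 1.85 lie far to the right.

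Secretory and cell surface genes included the largest difference. *BGLU18*, a beta-glucosidase of the endoplasmic reticulum that releases abscisic acid from its glucose ester, was at 9.41, 9.91 and 9.86 in WT. In *fbs1-1* it was at 5.88, 7.25 and 5.58, far below WT on each array but with a wide spread among them. The difference of 3.49 (standard error 0.38), 11.2-fold, passed limma's test (adjusted p = 0.00230) and did so whichever array was left out. *BGLU18* became a member by its WT level and was named through the study's lists. Those fits kept the members fixed, so they do not test that choice.

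*PYK10*, the beta-glucosidase that fills ER bodies of roots and seedlings, was at 9.97, 9.98 and 10.13 in WT and at 10.26, 9.88 and 10.16 in *fbs1-1*, with overlap and a difference of -0.07 (standard error 0.12). *GRP3S*, a short glycine-rich protein, was at 10.30, 10.44 and 10.74 in WT and at 9.65, 9.67 and 9.84 in *fbs1-1*. It was lower on every mutant array, by 0.77 (standard error 0.13), 1.71-fold, and passed limma's test (adjusted p = 0.0173). The call was lost without WT replicate 2 or any 1 of the *fbs1-1* arrays (highest adjusted p = 0.0754) and was kept within the arrays numbered 59 to 62 (adjusted p = 0.0334).

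The lipid transfer-like genes At2g45180 and At2g10940 differed by 0.19 and 0.11, and At1g78040, related to pollen allergens of the Ole e 1 type, by -0.02. *PRXR1*, a secreted peroxidase, was at 9.80, 9.96 and 9.75 in WT and at 10.00, 10.09 and 10.10 in *fbs1-1*. All *fbs1-1* arrays were higher, and the difference of -0.23 (standard error 0.10) did not pass limma's test (adjusted p = 0.317).

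In cytosolic metabolism, the glycolytic gene *TPI*, triose phosphate isomerase, was at 9.75, 9.83 and 9.78 in WT and at 10.00, 9.98 and 10.13 in *fbs1-1*, with no overlap (difference -0.25, standard error 0.09, adjusted p = 0.237 from limma). *GAPC2*, the cytosolic glyceraldehyde-3-phosphate dehydrogenase, differed by 0.04 and *SAMDC*, a decarboxylase of polyamine synthesis, by 0.03. *cICDH*, the cytosolic isocitrate dehydrogenase, was lower on all *fbs1-1* arrays by 0.13 (adjusted p = 0.574). None of these 4 genes passed.

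Probe sets shared by several genes covered basic functions. The one for elongation factors *EF1A1* to *EF1A4*, which bring aminoacyl-tRNA to the ribosome, was at 11.23, 11.47 and 11.44 in WT and at 11.43, 11.47 and 11.53 in *fbs1-1*. Its WT replicate 1 was the only array apart from the others. The probe sets for EF1B-gamma and histone H3.3 differed by 0.04 and 0.03, with overlap. The one for the beta subunit of the mitochondrial ATP synthase was higher on all *fbs1-1* arrays by 0.17 (adjusted p = 0.464 from limma).

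At3g28220, a TRAF-like protein of unknown role, was at 9.57, 10.03 and 10.07 in WT and at 7.71, 8.69 and 7.72 in *fbs1-1*. As for *BGLU18*, *fbs1-1* replicate 2 was the highest of the mutant arrays and still lower than every WT array. The difference of 1.85 (standard error 0.26), 3.60-fold, passed limma's test (adjusted p = 0.00821) and did so whichever array was left out. At3g28220 too became a member by its WT level, a choice that those fits do not test. It was the only member named by the platform annotation that passed.

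At2g25510, of unknown function, had the largest SD within WT among members with a name, at 9.90, 10.73 and 10.66, against 10.00, 10.29 and 10.23 in *fbs1-1*. At1g09310, also uncharacterised, followed with 10.58, 10.34 and 9.98 in WT and 10.33, 10.42 and 10.28 in *fbs1-1*. For both genes the spread among WT arrays was larger than the difference between genotypes.

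Since the WT values chose the members, calls higher in WT are favored, and the counts given next are a description only. Of the 171 members, 5 were higher in WT at a limma adjusted p under 0.05, where 1.57% of all probe sets tested were, and 1 was higher in *fbs1-1*, where 1.68% of all were. That makes 6 in either direction, where 3.25% of all passed. The 5 are *BGLU18*, At3g28220, *FSD1*, *RPE* and *GRP3S*, and of these *GRP3S* alone was also among the brightest by the *fbs1-1* mean. Only At3g28220 was named by the platform annotation, and the study lists it as higher in WT too. The 1 higher in *fbs1-1* is the unnamed probe set 252022_at, at 9.72, 9.91 and 9.66 in WT and 10.25, 10.21 and 10.42 in *fbs1-1*. Its difference of -0.53 (standard error 0.11, adjusted p = 0.0372) was lost whichever array was left out (highest adjusted p = 0.157). Rank products, the test of the study's methods, called the same 5 members higher in WT, where 1.17% of all probe sets were, and none higher in *fbs1-1*, where 1.12% were. The study's lists came from this test on the same arrays, so the repeated calls are no separate evidence. At an unadjusted p under 0.05 from limma, 29 members (17.0%) differed in either direction, near the 14.7% of all probe sets tested.

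The genotypes did not overlap for 56 members (32.7%), against 19.7% of all probe sets tested, with all WT arrays above in 36 (background 8.94%) and all *fbs1-1* arrays above in 20 (background 10.8%). The WT values entered the choice, which favors the first direction, and nothing further is read from these shares. Higher means were in WT for 90 members and in *fbs1-1* for 81. The median difference was 0.02, beside -0.01 for all probe sets tested, and the median absolute difference was 0.12 beside 0.11. Differences under 0.25 were found for 142 members (83.0%) and for 80.7% of all. At least 0.5 was reached by 9 members and at least 1 by 3, where 5.71% and 1.22% of all probe sets did.

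The plot of both genotype means shows this as a line of points along equal levels with few departures. Whether the bright end of the signal scale compresses differences was not tested, so points near the line need not mean equal transcript amounts. The brightest member had the same value on WT replicate 3 and on *fbs1-1* replicates 1 and 2.

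**Figure D3:**
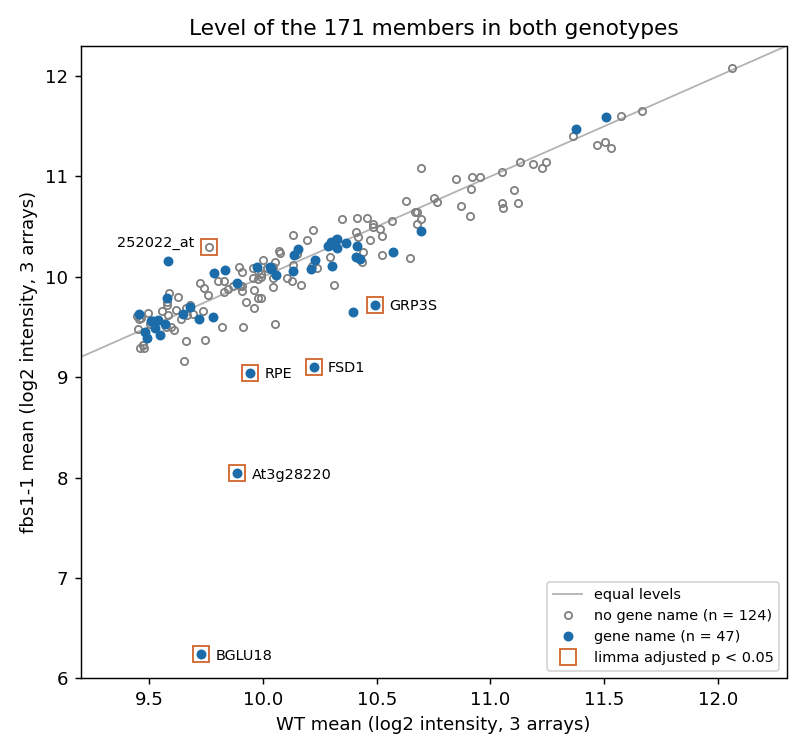
Mean log2 intensity over 3 WT arrays (horizontal axis) and 3 *fbs1-1* arrays (vertical axis) of the 171 members, filled where a gene name is known (n = 47) and open where none is (n = 124). Squares mark the 6 members with a limma adjusted p under 0.05, with *BGLU18* at 9.73 in WT and 6.24 in *fbs1-1* lying farthest from the line of equal levels.

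Among the 124 members with no gene name, 1 passed, where 3.25% of all probe sets tested did. The next largest difference was 0.52 for 255248_at (10.05 ± 0.15 in WT, 9.53 ± 0.31 in *fbs1-1*, SD, n = 3, adjusted p = 0.153 from limma). It was followed by 256825_at with 0.49 (adjusted p = 0.0610) and 262557_at with 0.46 (adjusted p = 0.0661). None of the unnamed members differed 2-fold.

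How far the brightest transcripts of WT were also the brightest of *fbs1-1* was asked of the mutant arrays alone. By the mean of these arrays, 157 of the 171 members (91.8%) were again among the 200 brightest nuclear probe sets. All 23 genes of photosynthesis, photorespiration and plastid functions named by the platform annotation stayed among them. *RPE* and *FSD1*, placed in the same roles but named through the study's lists, did not. The median member moved by 13 places in the order, and 73 moved by no more than 10.

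Of the 14 that left, *BGLU18* went from position 143 to 2466, At3g28220 from 123 to 694, *RPE* from 111 to 320 and *FSD1* from 71 to 305, and these 4 are the members of the 14 that passed limma's test. The unnamed probe sets 266215_at, 252115_at and 256825_at went from 139, 151 and 153 to 228, 229 and 286, with differences of 0.38, 0.30 and 0.49 that did not pass (adjusted p = 0.361, 0.315 and 0.0610 from limma). *cICDH*, At4g15545 and histone H3.3 moved from positions 176, 186 and 187 to 217, 226 and 203, and the other 4 are unnamed and started from positions 188 to 193.

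In their place 16 probe sets entered, 2 of them ribosomal. The genes with a name among the others come from the study's lists of called genes. *CSR1* (At3g48560), acetolactate synthase of branched-chain amino acid synthesis, rose from position 1038 to 63 and was at 7.47 ± 0.10 in WT and 10.25 ± 0.12 in *fbs1-1* (SD, n = 3). *ELIP1* (At3g22840), a chlorophyll-binding protein induced by strong light and cold, went from position 512 to 128, and the glucosinolate breakdown modifier gene *ESM1* (At3g14210) from 1384 to 182. Chosen by the *fbs1-1* mean instead, the members higher in WT were 1 and those higher in *fbs1-1* were 4, namely *CSR1*, *ELIP1*, *ESM1* and 252022_at. Chosen by the mean of all 6 arrays, 3 were higher in WT (*GRP3S*, *FSD1* and *RPE*) and 1 in *fbs1-1*. The direction of the calls therefore depends on which arrays make the choice.

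Members are expected to drop out on any array that did not choose them, so the choice was also made on 2 WT arrays and looked up on the remaining one. The left-out WT array kept 92.9%, 93.1% and 94.2% of the members in its own 200 brightest. The *fbs1-1* arrays kept between 85.0% and 92.9%. In each of the 3 choices *fbs1-1* replicate 3 kept the fewest, from 85.0% to 87.0%, while replicates 1 and 2 kept 89.6% to 92.9%. Only *fbs1-1* replicate 2, with the choice made without WT replicate 1, kept as many as the left-out WT array.

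**Figure D4:**
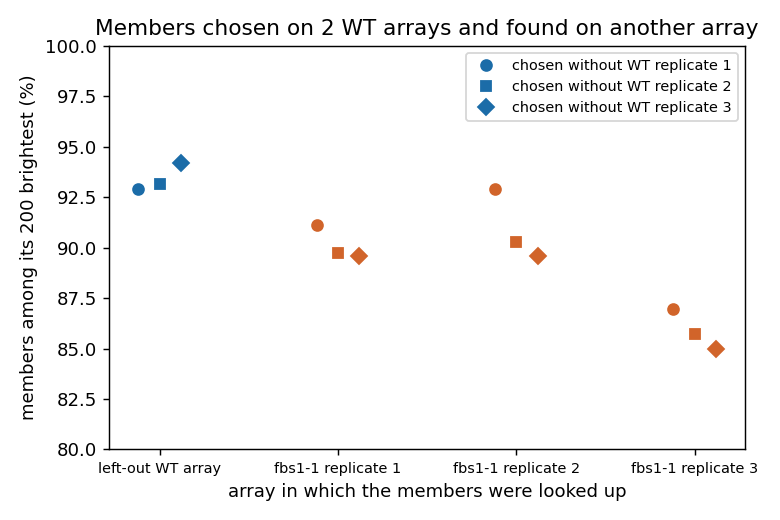
Share of members (vertical axis, percent, from 80 to 100) that were among the 200 brightest nuclear probe sets of an array that did not choose them, with members chosen on 2 WT arrays and the symbol giving the WT array left out. The left-out WT arrays (blue) kept 92.9% to 94.2%, and *fbs1-1* replicate 3 (orange, right) kept 85.0% to 87.0%.

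Other genes of the same functions came from 23 lists with 274 entries, of which 42 are named to a probe set of their own and 18 of those are members. Over the 42, *PETM* was the only gene that passed limma's test, where 3.25% of all probe sets tested passed. The other *LHCB4* genes show how unevenly bright the members of a family can be on the array. *LHCB4.2* was at position 347 and *LHCB4.3* at position 3689, and neither passed (adjusted p = 0.520 and 0.969 from limma). The 6 named tubulin genes, which build microtubules, were all outside the members, at positions 478 to 5631, and all differed by 0.14 or less.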

How the data were processed

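RNA of 3 WT and 3 *fbs1-1* seedling samples was measured on 6 ATH1 arrays, and samples were grouped by the labels. The authors made the deposited log2 intensities by RMA, per the labels and the methods (version not given in the sources used here). RMA corrects background, equalizes the distributions of the arrays and summarizes probes, so uniform changes in RNA amount are not seen. After 64 control probe sets were left out, 22746 were fitted with limma 3.58.1 in R 4.3.3, with genotype as the only term, and p-values were adjusted by Benjamini-Hochberg over all of them (threshold 0.05). All differences are WT minus *fbs1-1*. Positions count the 22596 nuclear probe sets, without the 150 in the ID block from 244901 to 245050.

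Rank products, the test of the methods, were computed in Python 3.11.15 over the 9 pairs of arrays with 100 permutations, at a percentage of false prediction under 0.05. On simulated data of 3 against 3 arrays and 22746 probe sets, limma recovered 77 of 100 probe sets changed 2-fold and 97 of 100 changed 4-fold with 3 false calls. Rank products recovered 93 and 100, with 27 false calls. The simulated noise was normal, with each probe set's own SD, and independent between probe sets and arrays. It lacks the deviations that probe sets share on a real array, so performance on the real arrays may differ.

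Genes were named by the platform annotation, with loci from assembly TAIR10.1, and 4 members through the study's tables, whose fold changes and test values were not used. Cytosolic ribosomal genes came from a list of loci. By rule, named genes were the brightest members with a name, list members, all that passed, those with the largest and smallest differences and WT SDs, and those at the threshold. Other members with a gene name are given as well. The unnamed members given and the genes that are no members (*CSR1*, *ELIP1*, *ESM1*, *PETM*, *COR47*, *PRX39*, *LHCB4.2*, *LHCB4.3* and the tubulin genes) were chosen after their values were seen. The members and lists were chosen with earlier results of these data known. Labels call the replicates biological. The limma p-values set the difference between genotypes against the spread among these samples, moderated over all probe sets tested. Alternatives covered scaling, filters, blocks, variance model, choice of members and each array left out. No sequences or coordinates are given, because no sequence table of this genome was used here.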

Additional observations from a re-analysis of the deposited data

How the results depend on the processing

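Counts of members that passed limma were few, so single members moved them. For the alternative limma fits, the share of all probe sets that passed is not given. Their counts, here and below, therefore have no background beside them and describe the members only. The 5 higher in WT became 8 with the array number groups as a block, 9 with an intensity trend and 3 within the arrays numbered 59 to 62. Those higher in *fbs1-1* (1) became 2 with the block and 2 with the trend. With 100 probe sets kept there were 2 and 0, and with 400 kept 9 and 2. Chosen by the *fbs1-1* mean they were 1 and 4, and by the mean of 6 arrays 3 were higher in WT. Rank products gave 0 higher in *fbs1-1*. Leaving out each array in turn gave 2 to 6 higher in WT and 0 to 1 higher in *fbs1-1*. The median difference of 0.0159 became 0.0433 with arrays centred on their medians, 0.0477 within the arrays numbered 59 to 62, -0.0257 and -0.0145 with members chosen by the *fbs1-1* mean or the mean of 6 arrays, 0.0302 with 100 and 0.0019 with 400 probe sets kept, and ran from -0.0041 to 0.0352 with each array left out. It has no settled sign. The members kept among the *fbs1-1* brightest (157) were 82 with 100 and 303 with 400 probe sets kept, 147 to 157 on single *fbs1-1* arrays, and 154 to 160 with each array left out. Without the 6 called members 155 were kept.

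Same-numbered arrays of the genotypes deviated together with r = 0.28, 0.088 and 0.14 over all probe sets and 0.51, 0.17 and 0.13 over the members. In neither did every array correlate best with its own number, and over all probe sets 1 pair was under 0.1, so the numbers were not taken as pairs. With the replicate number as a block 7 members were higher in WT and 0 in *fbs1-1*, *PSAN* passed (adjusted p = 0.0396) and 252022_at did not (adjusted p = 0.0513, limma). For the members with a gene name and 252022_at, 571 of the 624 values under an alternative kept their direction and side of the threshold, 22 lost the call, 7 gained it and 24 changed sign. The filter, the intensity trend and both blocks leave the difference itself unchanged, so its direction could not turn there. Most of these members were not called in the main fit, so the tally is no measure of robustness. The sign changes were in 16 members of small difference (at most 0.070 in size), none of them called. With arrays centred on their medians *PRK* was at 0.0052, At1g78040 at 0.0069 and At3g54210 at 0.0118, and with quantile normalization *SAMDC* was at -0.0199 and At1g32470 at 0.0104. Within the arrays numbered 59 to 62 *PRK* was at 0.0123, *PYK10* at 0.0384 and At1g11860 at 0.0092. With each array left out the range was -0.184 to 0.117 for At1g09310, -0.0511 to 0.0103 for At1g78040, -0.0081 to 0.0815 for At2g37220, -0.0161 to 0.0966 for At3g13120, -0.0956 to 0.0164 for At4g01310, -0.0209 to 0.128 for EF1B-gamma, -0.0128 to 0.0716 for *GAPC2*, -0.164 to 0.0548 for *KIN1* and *KIN2*, -0.0794 to 0.0252 for *PRK*, -0.0981 to 0.0166 for *PSB27*, -0.179 to 0.0103 for *PYK10*, -0.0189 to 0.0852 for *SAMDC* and -0.0216 to 0.0739 for histone H3.3. With nuclear probe sets of the ID block kept, added after seeing the data as were the fits within the arrays numbered 59 to 62 and without called members, 6 members were higher in WT and 158 were kept. Arrays have no read depth, and the files give no detection calls.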
